A study of Homo sapiens with 18 samples.

Results

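ISG15, the enzymes that attach it to other proteins and the protease that takes it off again were followed through RNA-seq of breast cancer cells treated with the PARP inhibitor olaparib. The 6 genes, ISG15, UBA7, UBE2L6, HERC5, HERC6 and USP18, were chosen by name, as the rows of a read count table whose Ensembl identifiers carry those symbols, and all 6 were found among 35044 genes. They were also all among the 18335 genes that passed a filter on low counts and were tested, although UBE2L6 passed through a single line alone.

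ISG15 is a small ubiquitin-like protein that interferon induces and that cells link covalently to newly made proteins, a modification called ISGylation. It travels along a short relay: UBA7 activates it, UBE2L6 takes it over as the conjugating enzyme, and a ligase, in human cells chiefly HERC5, passes it to the substrate, while USP18 removes it. The genes of the relay are themselves interferon-stimulated genes, and ISG15 and USP18 proteins also act outside conjugation, USP18 by binding an interferon receptor subunit and damping its signal.

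The study compared HCC1937-EV, the BRCA1-mutated breast cancer line HCC1937 with an empty vector, with HCC1937-OE-BRCA1, in which wild-type BRCA1 was overexpressed. Each line was sampled untreated (0 h) and at 12 h and 24 h of exposure to olaparib at 10 µmol/L, in 3 libraries per condition, which made 6 conditions and 18 libraries. No untreated library is titled for 12 h or 24 h, so olaparib and time in culture cannot be told apart. Treatment effect below means the change against 0 h. Conditions were read from the sample titles, since other label fields list olaparib for every library, untreated ones included, and call the genotype of HCC1937-EV WT. No source used here says that replicates came from separate cultures, so every p-value below measures the spread between these libraries, which may be technical, and in bulk RNA fewer cells of a kind and less RNA per cell cannot be told apart.

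Total counts lay between 15081973 and 17571922 per library. BRCA1, the overexpressed gene, stood at 126, 110 and 116 CPM (counts per 1000000 of the library total, scaled by TMM) in the 3 HCC1937-EV libraries at 0 h and at 166, 122 and 127 CPM in the 3 HCC1937-OE-BRCA1 libraries. It was not called at 0 h by edgeR's quasi-likelihood test (log2 fold change 0.24 ± 0.11, SE, Benjamini-Hochberg adjusted p = 0.0654), though DESeq2 called it. At 12 h neither method called it between the lines (log2 fold change 0.16 in edgeR). It was higher in HCC1937-OE-BRCA1 at 24 h (0.77 ± 0.11, adjusted p = 3.165e-06 in the same edgeR test). Within HCC1937-EV it stood at -0.32 at 24 h against 0 h, called lower by DESeq2 but not by edgeR. Gene counts do not separate the mutated from the wild-type transcript. Markers of the labelled cell type set the lines apart. EPCAM, an epithelial adhesion protein, averaged 0.0205 CPM in HCC1937-EV and 309.7 CPM in HCC1937-OE-BRCA1 at 0 h, and KRT5, a basal keratin, 0.0824 and 1548 CPM. KRT8 and KRT18 were high in both lines. The libraries labelled HCC1937-EV therefore went against their label in EPCAM and KRT5, and what separates the lines by BRCA1 and by anything else cannot be told apart in the comparisons of the lines below. The summed level of 4 leukocyte markers in the table lay between 1.15 and 2.59 CPM in HCC1937-EV and between 33.7 and 86.6 CPM in HCC1937-OE-BRCA1, most of it CD14. PTPRC, the pan-leukocyte marker, averaged 0 CPM in HCC1937-EV and at most 1.23 CPM in HCC1937-OE-BRCA1. The summed level of 4 fibroblast markers ran the other way, from 96.9 to 153 CPM in HCC1937-EV and from 6.27 to 11.9 CPM in HCC1937-OE-BRCA1, and COL1A1, a collagen, averaged 98.5 and 7.44 CPM at 0 h.

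The sequence before the RefSeq start of 3 of the genes is shown because interferon-stimulated response elements (ISREs) usually lie before a gene's start. ISREs are the sites bound by interferon-activated transcription factors. HERC5 and HERC6, neighbours of the same family, also differed in that sequence. The windows hold the 250 bases before the RefSeq transcription start (GRCh38.p14), on the strand of the gene, with matches to the ISRE core (GAAA, any 2 bases, GAAA) on either strand in capitals. ISG15 lies at chr1:1013247-1013496 (+), HERC5 at chr4:88456869-88457118 (+) and HERC6 at chr4:88378602-88378851 (+).
ISG15: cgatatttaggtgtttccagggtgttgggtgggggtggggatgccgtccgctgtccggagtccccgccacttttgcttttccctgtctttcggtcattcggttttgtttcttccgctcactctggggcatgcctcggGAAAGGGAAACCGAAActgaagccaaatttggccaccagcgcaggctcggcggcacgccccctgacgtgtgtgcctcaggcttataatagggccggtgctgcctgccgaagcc
HERC5: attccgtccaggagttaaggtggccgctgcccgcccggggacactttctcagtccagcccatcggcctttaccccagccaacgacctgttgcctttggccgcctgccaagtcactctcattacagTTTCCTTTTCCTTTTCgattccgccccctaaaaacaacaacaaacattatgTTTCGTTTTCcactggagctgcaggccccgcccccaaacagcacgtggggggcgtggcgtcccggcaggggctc
HERC6: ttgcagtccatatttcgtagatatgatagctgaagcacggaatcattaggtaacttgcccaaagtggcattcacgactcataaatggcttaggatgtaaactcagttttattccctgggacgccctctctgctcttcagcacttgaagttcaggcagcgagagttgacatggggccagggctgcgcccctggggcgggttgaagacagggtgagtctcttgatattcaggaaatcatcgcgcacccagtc
ISG15 held 2 overlapping matches, which began 113 and 107 bases before the start on the gene's strand. HERC5 held 3 matches on the opposite strand, of which 2 overlapped, at 125, 119 and 74 bases. HERC6 held 0, as did both RefSeq windows of UBE2L6, at chr11:57567936-57568185 (-) and chr11:57567673-57567922 (-). By the GENCODE coordinates given below, both UBE2L6 windows lie inside the gene, which starts at 57568284 on the - strand. The ISG15 window also lies inside its gene, which starts at 1001138. HERC6 starts at 88378739, within its window. The bases before the GENCODE start were thus scanned only in part for HERC6 and not at all for UBE2L6 and ISG15. The counts of 0 describe these windows only. The core was found in 3.02% of 34943 windows of this length. A gamma-activated site core, TTCNNNGAA, was found in 6.56% of windows and in 0 of these. A match is a description of the letters and shows no binding. 4 of the 6 genes were matched in RefSeq's promoter table, and UBA7 and USP18 were not.

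ISG15, the modifier itself (ENSG00000187608.10, chr1:1001138-1014540 in GENCODE 29 on GRCh38, + strand), was low in HCC1937-EV and among the most abundant transcripts of HCC1937-OE-BRCA1. The HCC1937-EV libraries read 4.03, 5.68 and 5.11 CPM at 0 h, then 6.08, 6.18 and 11.1 CPM at 12 h and 9.97, 9.01 and 7.90 CPM at 24 h. The HCC1937-OE-BRCA1 libraries read 294, 463 and 354 CPM at 0 h, then 894, 803 and 770 CPM at 12 h and 886, 946 and 757 CPM at 24 h. In both lines every treated library lay above every 0 h library, as for 10.1% and 20.8% of all tested genes at 12 h and 24 h in HCC1937-EV. The lowest library of HCC1937-OE-BRCA1 was far above the highest of HCC1937-EV. Per kilobase of exon, its level at 24 h stood at the 99.9th percentile of the tested genes in HCC1937-OE-BRCA1 and at the 73.5th in HCC1937-EV.

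UBA7, the activating enzyme (ENSG00000182179.13, chr3:49805207-49813946, - strand), was near 1 CPM in HCC1937-EV. Its libraries there read 1.24, 0.926 and 1.17 CPM at 0 h, then 1.28, 0.999 and 1.22 CPM at 12 h and 1.18, 1.001 and 1.80 CPM at 24 h, which were 15 to 30 counts each. The HCC1937-OE-BRCA1 libraries read 36.7, 46.1 and 51.8 CPM at 0 h, then 82.5, 85.2 and 80.4 CPM at 12 h and 101, 98.8 and 104 CPM at 24 h. The 3 conditions overlapped in HCC1937-EV and formed 3 separate steps in HCC1937-OE-BRCA1. Of all tested genes, 9.2% had libraries at 12 h all above those at 0 h in HCC1937-OE-BRCA1, 14% had those at 24 h above 0 h, and 18.4% had those at 24 h above 12 h, shares that also apply to the genes below.

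UBE2L6, the conjugating enzyme (ENSG00000156587.16, chr11:57551656-57568284, - strand), was absent or nearly so from the HCC1937-EV libraries. They held 2, 0 and 0 counts at 0 h, 0, 0 and 0 counts at 12 h and 0, 1 and 0 counts at 24 h. For the count of 0 over the 3 libraries at 12 h a floor of 3 counts was set, about its 95% upper limit by counting error. That floor comes to 0.0647 CPM. The HCC1937-OE-BRCA1 libraries held 2785, 3786 and 3612 counts at 0 h, 6277, 5744 and 5284 at 12 h and 5433, 6203 and 5866 at 24 h, or 171 to 394 CPM. No change with olaparib can be read in HCC1937-EV at these counts, and no fold is given for it there. The floor and the intervals for this gene cover counting error only.

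HERC5, the main human ISG15 ligase (ENSG00000138646.9, chr4:88457117-88506163, + strand), was the member with the closest levels in the untreated lines. The HCC1937-EV libraries read 26.4, 25.7 and 23.0 CPM at 0 h, then 29.8, 24.9 and 23.0 CPM at 12 h and 22.1, 20.8 and 21.9 CPM at 24 h. The HCC1937-OE-BRCA1 libraries read 54.8, 47.8 and 40.6 CPM at 0 h, then 122, 126 and 123 CPM at 12 h and 161, 185 and 176 CPM at 24 h. The 3 times did not overlap in HCC1937-OE-BRCA1. In HCC1937-EV the libraries at 24 h all lay below those at 0 h, as for 19% of all tested genes.

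HERC6, a ligase of the same family that conjugates ISG15 in mouse (ENSG00000138642.15, chr4:88378739-88443111, + strand), lies 14005 bases from HERC5 on the same strand. Its HCC1937-EV libraries read 5.27, 5.37 and 4.31 CPM at 0 h, then 6.20, 7.55 and 5.36 CPM at 12 h and 5.60, 5.42 and 5.39 CPM at 24 h. The HCC1937-OE-BRCA1 libraries read 195, 168 and 170 CPM at 0 h, then 283, 300.03 and 289 CPM at 12 h and 326, 345 and 348 CPM at 24 h. The 3 times did not overlap there, as for HERC5. In HCC1937-EV the libraries at 24 h lay just above those at 0 h, as for 20.8% of all tested genes.

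USP18, the ISG15 protease (ENSG00000184979.10, chr22:18149899-18177397, + strand), was steady in HCC1937-EV, at 9.93, 10.7 and 11.6 CPM at 0 h, then 11.3, 11.3 and 12.6 CPM at 12 h and 11.0, 9.72 and 12.4 CPM at 24 h. The libraries of HCC1937-OE-BRCA1 read 87.0, 80.4 and 86.0 CPM at 0 h, then 194, 178 and 159 CPM at 12 h and 173, 180 and 172 CPM at 24 h. Every treated library of HCC1937-OE-BRCA1 lay above every 0 h library, and 12 h and 24 h overlapped. USP41, a near-identical copy that can share reads with USP18, held 0 to 17 counts per library where USP18 held 160 to 3094. Reads that match both copies may have been counted for neither, so the USP18 values are uncertain to an extent that was not measured.

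**Figure D1:**
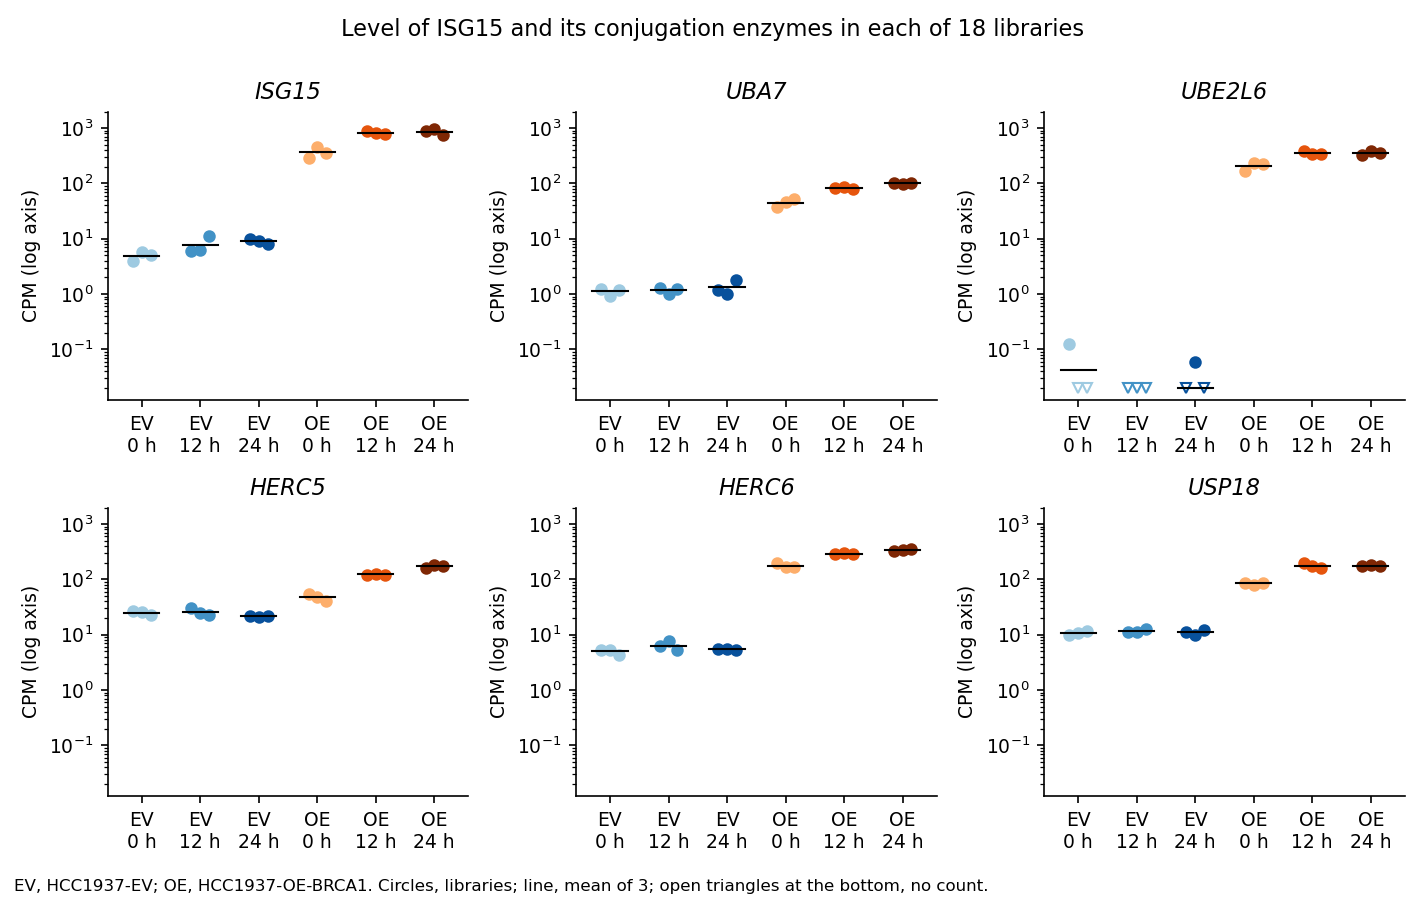
CPM on a log axis (vertical) for each of the 6 genes in the 6 conditions (horizontal), with 1 circle per library, a line at the mean of 3 and open triangles for libraries without a count. HCC1937-OE-BRCA1 libraries lie above HCC1937-EV libraries for every gene, least for HERC5 at 0 h, and UBE2L6 has 3 counts in all 9 HCC1937-EV libraries together.

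In HCC1937-OE-BRCA1 all 6 genes rose by 12 h of olaparib. 6 of 6 were called higher and 0 lower at an adjusted p under 0.05 in edgeR's quasi-likelihood test, against 1.7% of all tested genes called higher, and their median log2 fold change was 0.97 against 0.0037 over all genes. HERC5 rose most, with a log2 fold change of 1.37 ± 0.11 (SE, n = 3 against 3, edgeR adjusted p = 1.21e-07). ISG15 rose by 1.15 ± 0.17 (edgeR adjusted p = 0.000247) and USP18 by 1.07 ± 0.10 (edgeR adjusted p = 7.27e-07). UBA7 rose by 0.88 ± 0.13 and UBE2L6 by 0.77 ± 0.13 (edgeR adjusted p = 0.000177 and 0.00198). HERC6 rose by 0.71 ± 0.10 (edgeR adjusted p = 0.00012). All 6 were still called whichever single library was left out, and for each of them the libraries at 12 h all lay above those at 0 h, as for 9.2% of all tested genes. With only the compared HCC1937-OE-BRCA1 libraries in the fit, and so without HCC1937-EV, all 6 were called as well at 12 h and at 24 h.

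At 24 h all 6 were again higher than at 0 h, against 4.71% of all tested genes called higher, with a median log2 fold change of 1.11 against 0.02 over all genes, and again with no overlap between the libraries, as for 14% of all tested genes. HERC5 had reached 1.87 ± 0.11 (edgeR adjusted p = 1.58e-09) and UBA7 1.17 ± 0.13 (edgeR adjusted p = 3.46e-06). ISG15 stood at 1.22 ± 0.17, USP18 at 1.05 ± 0.10, HERC6 at 0.94 ± 0.10 and UBE2L6 at 0.77 ± 0.13, with edgeR adjusted p-values from 5.43e-07 to 0.00118. CD14, the leukocyte marker that carried most of that list's level, rose in the same libraries, by 0.94 ± 0.15 at 12 h and 0.94 ± 0.15 at 24 h (edgeR adjusted p = 0.000612 and 0.000342), while PTPRC stayed between 0.929 and 1.23 CPM on average. KRT8, KRT18, KRT5 and CDH1, of the 9 epithelial and basal markers, were lower at 24 h, by log2 fold changes of -0.50, -0.56, -0.47 and -0.35, and PECAM1, an endothelial marker, was higher, by 0.92. The part of these markers in the members' changes was not tested.

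From 12 h to 24 h only HERC5 was called in HCC1937-OE-BRCA1, with 1 of 6 members against 0.791% of all tested genes called higher. It rose by 0.49 ± 0.11 on the log2 scale (edgeR adjusted p = 0.0225). That call was lost without any of the 3 libraries at 12 h or without replicate 2 or 3 at 24 h, with adjusted p-values up to 0.124 in edgeR and a log2 fold change of at least 0.45. UBA7 and HERC6 differed by 0.29 ± 0.12 and 0.23 ± 0.10 (edgeR adjusted p = 0.232 and 0.233), although their libraries did not overlap, as for 18.4% of all genes in that direction. With only those 6 libraries in the fit, 3 members were called, UBA7 and HERC6 besides HERC5. ISG15, UBE2L6 and USP18 differed by 0.07, -0.0046 and -0.02 (SE 0.17, 0.13 and 0.10).

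In HCC1937-EV, 0 of 6 members were called at 12 h in edgeR and 0 by DESeq2, against 0.0273% of all tested genes called higher in edgeR, and 2 of 6, ISG15 and HERC6, had an unadjusted p under 0.05. ISG15 had a log2 fold change of 0.65 ± 0.23 (edgeR adjusted p = 0.18) and HERC6 one of 0.36 ± 0.13 (edgeR adjusted p = 0.202). UBA7, HERC5 and USP18 lay between 0.05 and 0.12. Without replicate 3 at 12 h, the library at 11.1 CPM, the value for ISG15 was 0.30 (edgeR adjusted p = 0.728).

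At 24 h in HCC1937-EV, ISG15 alone was called, 1 of 6 members against 8.62% of all tested genes called higher, a share near that background. It rose by 0.86 ± 0.22 on the log2 scale (edgeR adjusted p = 0.0166), from 4.94 ± 0.84 to 8.96 ± 1.03 CPM (SD, n = 3). The call was lost without replicate 1 or 3 at 0 h and without replicate 1 or 2 at 24 h, with log2 fold changes of 0.73 to 0.87 and adjusted p-values of 0.0548 to 0.0967 in edgeR. Of the markers of other cell types, COL1A1 and ESR1, the oestrogen receptor, were called higher in the same comparison, by 0.44 and 0.68 on the log2 scale, and their part in the rise of ISG15 was not tested. HERC5 stood at -0.21 ± 0.12, HERC6 at 0.13 ± 0.13, UBA7 at 0.25 ± 0.25 and USP18 at 0.04 ± 0.11, with edgeR adjusted p-values from 0.227 to 0.9. Transcripts rich in G and C moved with the libraries: the rank correlation, over genes, of a gene's deviation from its line's mean with its GC content ran from -0.462 to -0.171 in the HCC1937-EV libraries at 0 h and from 0.206 to 0.476 at 24 h. In the HCC1937-OE-BRCA1 libraries this correlation ran from -0.491 to 0.453 at 0 h, from 0.135 to 0.441 at 12 h and from -0.358 to -0.221 at 24 h. HERC5 and HERC6 have a transcript GC content of 44.1% and 46.3%, at the 32.2th and 40.8th percentiles of tested genes. ISG15 has a transcript GC content of 63.4%, at the 93.7th percentile of tested genes. With each library's trend on GC content and length taken out, its rise was 0.54 (edgeR adjusted p = 0.029). Between 12 h and 24 h, 0 of 6 were called in HCC1937-EV by edgeR and by DESeq2, against 0.136% of all genes called higher in edgeR, and 1, HERC5, had an unadjusted p under 0.05, with -0.26 ± 0.12 (edgeR adjusted p = 0.517).

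**Figure D2:**
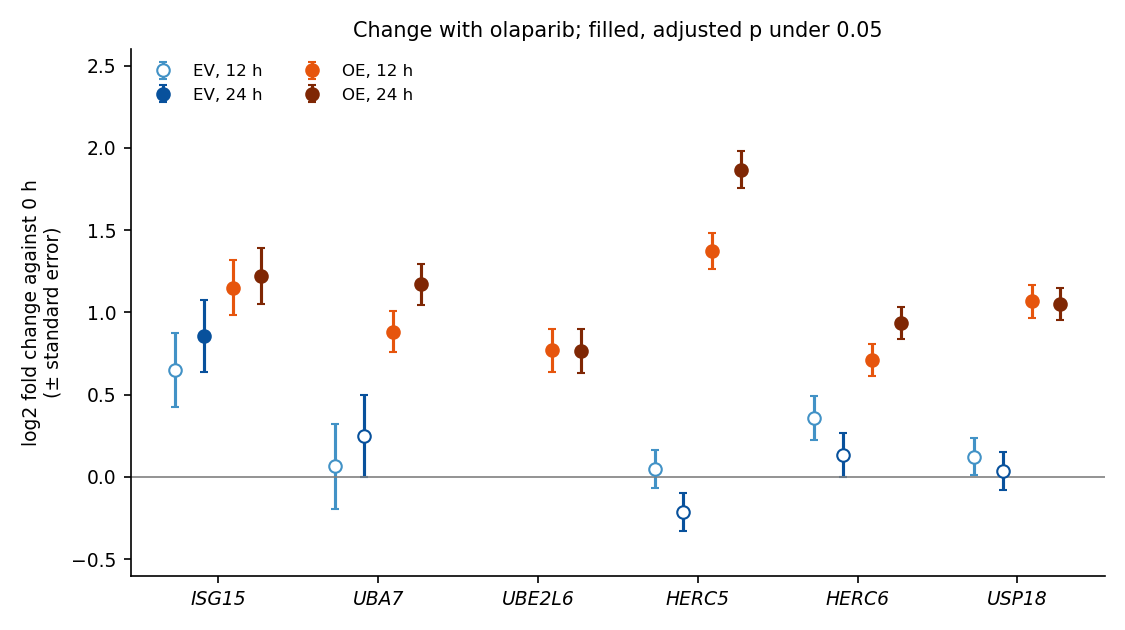
Log2 fold change against 0 h (vertical, ± standard error) of each gene (horizontal) in HCC1937-EV (blue) and HCC1937-OE-BRCA1 (orange and brown) at 12 h and 24 h, filled where the adjusted p was under 0.05 and without HCC1937-EV values for UBE2L6. All 12 values of HCC1937-OE-BRCA1 are filled, and of the HCC1937-EV values only ISG15 at 24 h is.

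The change against 0 h with olaparib was compared between the lines by the difference of the treatment effects in the same fit. At 12 h it was larger in HCC1937-OE-BRCA1 for HERC5 by 1.32 ± 0.16 on the log2 scale and for USP18 by 0.94 ± 0.15 (edgeR adjusted p = 0.000152 and 0.0027), so for 2 of 6 members against 0.376% of all tested genes called in that direction. At 24 h the difference was called for 4 of 6, against 8.16% of all genes in that direction. It was 2.08 ± 0.16 for HERC5 (edgeR adjusted p = 5.06e-07), 1.02 ± 0.15 for USP18 (edgeR adjusted p = 0.000293), 0.92 ± 0.28 for UBA7 (edgeR adjusted p = 0.0265) and 0.80 ± 0.17 for HERC6 (edgeR adjusted p = 0.0032). The call for UBA7 was lost without replicate 1 or 3 of HCC1937-EV at 0 h, replicate 1 or 2 of HCC1937-EV at 24 h, or replicate 3 of HCC1937-OE-BRCA1 at 24 h, with values of 0.76 to 0.90.

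ISG15 did not pass this test at either time, with differences of 0.50 ± 0.28 and 0.36 ± 0.28 (edgeR adjusted p = 0.413 and 0.392). With the GC and length trend taken out, the difference at 24 h was 0.84 and passed (edgeR adjusted p = 0.00423), so this member's call depended on that step. The difference for UBE2L6 rests on 3 counts in HCC1937-EV and is not given as a fold.

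Between the lines, all 6 members were higher in HCC1937-OE-BRCA1 at every time, where 39.4%, 38.8% and 39.9% of all tested genes were also called higher at 0 h, 12 h and 24 h. Their libraries did not overlap between the lines, as for 38.7%, 39.7% and 42.6% of all tested genes. UBE2L6 passed the filter on low counts through HCC1937-OE-BRCA1 alone, so its place in these counts was largely set by that filter. At 0 h the log2 fold change was 6.23 ± 0.22 for ISG15, 5.32 ± 0.18 for UBA7, 5.15 ± 0.12 for HERC6, 2.97 ± 0.11 for USP18 and 0.93 ± 0.11 for HERC5, with edgeR adjusted p-values from 1.21e-18 to 2.94e-07. HERC5 thus differed by 1.91-fold where ISG15 differed by 74.8-fold. At 24 h the values were 6.59, 6.25, 5.96, 3.99 and 3.01 in the same order, with edgeR adjusted p-values of at most 3.27e-15. At 12 h UBE2L6 was at least 5547-fold higher against a floor of 3 counts over the 3 HCC1937-EV libraries, about a 95% counting limit. By its counts it was 5105 times higher at 0 h (95% counting interval 1413 to 42160) and 18110 times higher at 24 h (3250 to 715300). The floor and the widths of these intervals come from the 2, 0 and 1 counts of the HCC1937-EV groups at 0 h, 12 h and 24 h.

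Per kilobase of exon, which makes levels of different genes comparable, the order of the members differed between the lines. In HCC1937-EV at 0 h, HERC5, ISG15 and USP18 lay together at 5.25 ± 0.38, 5.25 ± 0.89 and 5.06 ± 0.40 CPM per kilobase (SD, n = 3) and did not differ beyond their spread. HERC6 followed at 0.861 ± 0.10, UBA7 at 0.245 ± 0.036 and UBE2L6 at 0.0188 CPM per kilobase. In HCC1937-OE-BRCA1 at 0 h, ISG15 led at 393 ± 91.1 CPM per kilobase, then UBE2L6 at 95.8 ± 15.5, USP18 at 39.7 ± 1.67 and HERC6 at 30.7 ± 2.64. HERC5 and UBA7 closed the order at 10.01 ± 1.49 and 9.87 ± 1.68 and did not differ beyond their spread. UBE2L6 was thus the lowest member in the former line and the second highest in the latter. When the longest coding transcript stood for the gene's length, HERC6 and USP18 changed places at 0 h and 24 h in HCC1937-OE-BRCA1, as did UBA7 and HERC5 at 0 h. In HCC1937-EV, HERC5 and USP18 changed places at 12 h and 24 h, from 5.44 and 5.52 to 7.37 and 5.52 CPM per kilobase at 12 h.

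**Figure D3:**
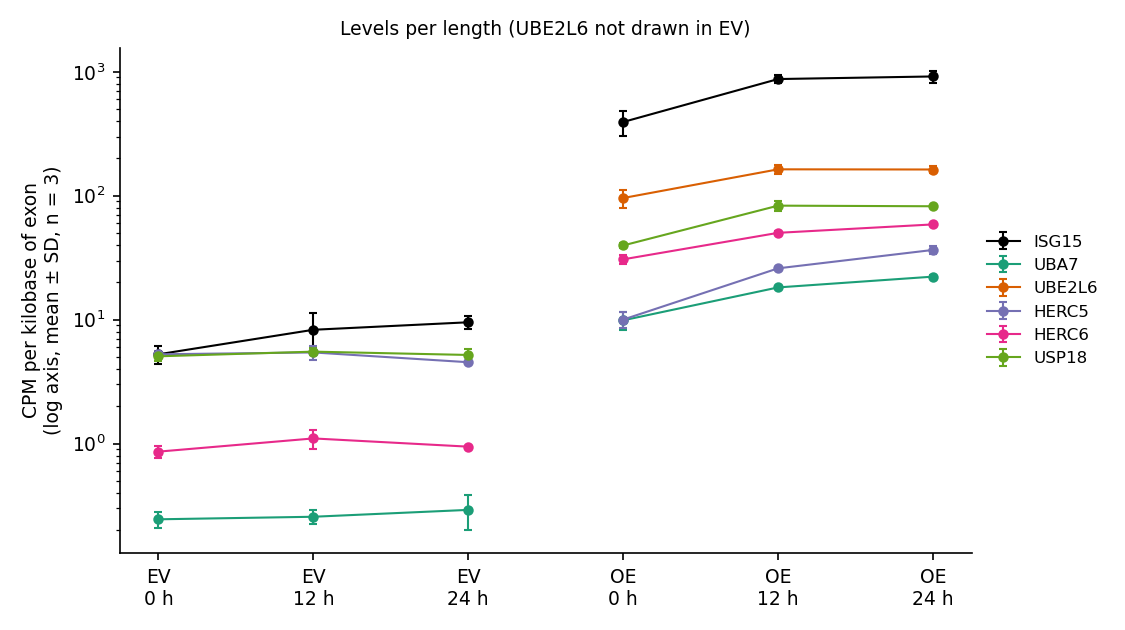
CPM per kilobase of exon on a log axis (vertical, mean ± SD, n = 3) for the 6 genes in the 6 conditions (horizontal). UBE2L6 is second to ISG15 in HCC1937-OE-BRCA1 at 95.8 to 163 and is not drawn in HCC1937-EV, and HERC5 and HERC6 stand in opposite order in the lines.

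The 2 neighbouring ligases changed places. The log2 ratio of HERC6 to HERC5 per kilobase was -2.61 ± 0.08 in HCC1937-EV at 0 h, -2.31 ± 0.28 at 12 h and -2.26 ± 0.04 at 24 h (SD, n = 3), so HERC5 was the higher of the pair in all 9 libraries. In HCC1937-OE-BRCA1 it was 1.62 ± 0.14 at 0 h, 0.95 ± 0.02 at 12 h and 0.69 ± 0.06 at 24 h, so HERC6 was the higher in all 9. The ratio fell by 0.67 by 12 h and by 0.94 by 24 h, with no overlap between the libraries. An exact two-sided permutation test gave p = 0.1 for each, which is the smallest p that 3 against 3 libraries allow. In HCC1937-EV the ratio was higher by 0.35 at 24 h than at 0 h, also with no overlap between the libraries and p = 0.1 in the same exact test. The change of places does not rest on the length used, since the longest coding transcripts gave 7.13 and 1.32 CPM per kilobase for HERC5 and HERC6 in HCC1937-EV at 0 h and 13.6 and 47.0 in HCC1937-OE-BRCA1.

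The log2 ratio of ISG15 to its protease USP18 per kilobase was 3.29 ± 0.39, 3.40 ± 0.05 and 3.47 ± 0.14 at 0 h, 12 h and 24 h in HCC1937-OE-BRCA1 (SD, n = 3). It differed there by less than the spread of the 0 h libraries. In HCC1937-EV it was 0.04 ± 0.20, 0.53 ± 0.41 and 0.88 ± 0.30. The highest library there read 0.2585 at 0 h, and the lowest read 0.2802 at 12 h and 0.5288 at 24 h. The GC trend given above for ISG15 in HCC1937-EV was not taken out of this ratio.

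Of the genes that act on ISG15 from outside the relay, 1 was called with olaparib in HCC1937-OE-BRCA1. Of 15 partners and proteases listed, among them the ligases TRIM25 and ARIH1 and several USP proteases with reported ISG15 activity, 13 were tested. In HCC1937-OE-BRCA1 at 12 h, 1 was called higher, against 1.7% of all tested genes, and none lower. The list's median log2 fold change was -0.07 against 0.0037 over all genes. The exception was TRIM25, a ligase that both attaches ISG15 and is modified by it, which averaged 194 CPM at 0 h, 307 CPM at 12 h and 229 CPM at 24 h. It rose by 0.66 ± 0.09 by 12 h (edgeR adjusted p = 0.0001535). It came down again from 12 h to 24 h, where 0.862% of all tested genes were called lower (-0.42 ± 0.09, edgeR adjusted p = 0.02047). Against 0 h, 0 of 13 were called at 24 h by edgeR and by DESeq2, and 5 of 13 had an unadjusted p under 0.05. In HCC1937-EV 0 of 13 were called at 12 h by edgeR and by DESeq2, with 3 at an unadjusted p under 0.05 in edgeR. At 24 h SKP2, USP16, USP24 and ARIH1 were called lower there, with log2 fold changes from -0.50 to -0.36, as were 5.12% of all tested genes.

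The upstream interferon signalling genes rose in part. Of 13 listed, 12 were tested, and in HCC1937-OE-BRCA1 the calls were 3 higher at 12 h and 4 higher at 24 h, none lower, with medians of 0.22 and 0.20. Over all tested genes, 1.7% and 4.71% were called higher at these times. STAT2, a subunit of the factor that binds ISREs, averaged 66.6 CPM at 0 h, 167 CPM at 12 h and 162 CPM at 24 h, with log2 fold changes of 1.33 ± 0.08 and 1.28 ± 0.08 (edgeR adjusted p = 2.75e-09 and 2.77e-09). IRF1 rose by 0.65 and 0.87, while IRF2 rose by 0.54 at 24 h and its 0.34 at 12 h did not pass the test. In HCC1937-EV 0 of 12 were called at 12 h by edgeR, with 3 at an unadjusted p under 0.05, and 1, JAK1, by DESeq2. At 24 h IRF3 and TYK2 were higher by 0.50 and 0.43, and JAK1 was lower, at -0.34. Over all tested genes, 8.62% were called higher and 5.12% lower in that comparison. For STAT2 the treatment effect was larger in HCC1937-OE-BRCA1 by 1.30 ± 0.12 at 12 h and by 1.17 ± 0.12 at 24 h (edgeR adjusted p = 5.27e-06 and 1.13e-05).

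Transcripts of proteins known to carry ISG15 were mixed. Of 21 substrates tested in HCC1937-OE-BRCA1, 7 rose by 12 h and 9 by 24 h in edgeR, which called none lower, with medians of 0.12 and 0.24. Over all tested genes, 1.7% and 4.71% were called higher at these times. DESeq2 called 1, UBE2N, lower at 24 h. Those with the largest changes are themselves interferon-stimulated genes: IFIT3, IFIT1, the RNA sensor RIGI and the RNA sensor IFIH1 rose by 1.75, 1.57, 1.38 and 1.23 at 12 h and by 2.10, 1.76, 1.501 and 1.12 at 24 h. IFIT3, which belongs to a complex that binds viral RNA, averaged 65.7, 221 and 283 CPM at the 3 times there and 4.76, 5.26 and 7.80 CPM in HCC1937-EV. In HCC1937-EV 0 of 21 were called at 12 h by edgeR, with 3 at an unadjusted p under 0.05, and 1, JAK1, by DESeq2. At 24 h there, IFIT1 and IFIT3 were the largest of 4 calls upward, with 0.84 and 0.71, and EIF2AK2, the kinase PKR, the larger of 2 calls downward, with -0.53. Over all tested genes, 8.62% were called higher and 5.12% lower in that comparison.

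With olaparib in HCC1937-OE-BRCA1, none of the corresponding enzymes of ubiquitin and other modifiers was called higher. Of 20 activating and conjugating enzymes of ubiquitin, SUMO, NEDD8 and related proteins, among them UBE2L3, the closest relative of UBE2L6, 0 were called in HCC1937-OE-BRCA1 at 12 h or at 24 h in edgeR, with 3 and 7 at an unadjusted p under 0.05 and medians of -0.10 and -0.05. Over all tested genes, 1.7% and 4.71% were called higher at these times, so 0 of 20 is near that background. DESeq2 called 0 at 12 h and 2, among them UBE2D2, lower at 24 h. Of 14 modifiers tested, 0 were called at 12 h by edgeR and by DESeq2, with 1 at an unadjusted p under 0.05 in edgeR. At 24 h 1 of the 14, MAP1LC3B, a modifier of the autophagy membrane, was called higher (0.32 ± 0.10, edgeR adjusted p = 0.04505), a share near the 4.71% of all tested genes. The other HERC family members HERC1, HERC2 and HERC4 gave 0 calls of 3 at either time in edgeR and in DESeq2, also near that background. Of these, 0 and 1 had an unadjusted p under 0.05 in edgeR at 12 h and 24 h. In HCC1937-EV at 24 h, UBE2M was called higher and UBA6 and UBA2 lower of the 20 enzymes, near the 8.62% and 5.12% of all tested genes called higher and lower there. Of the 14 modifiers 5 were called higher, led by NEDD8 at 1.69 ± 0.42 (edgeR adjusted p = 0.01362). NEDD8 was low and variable there, at 4.28 ± 1.21, 6.45 ± 3.73 and 13.9 ± 2.54 CPM at 0 h, 12 h and 24 h (SD, n = 3). The GC trend given above for HCC1937-EV was not taken out of the values of this list or the other related lists.

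**Figure D4:**
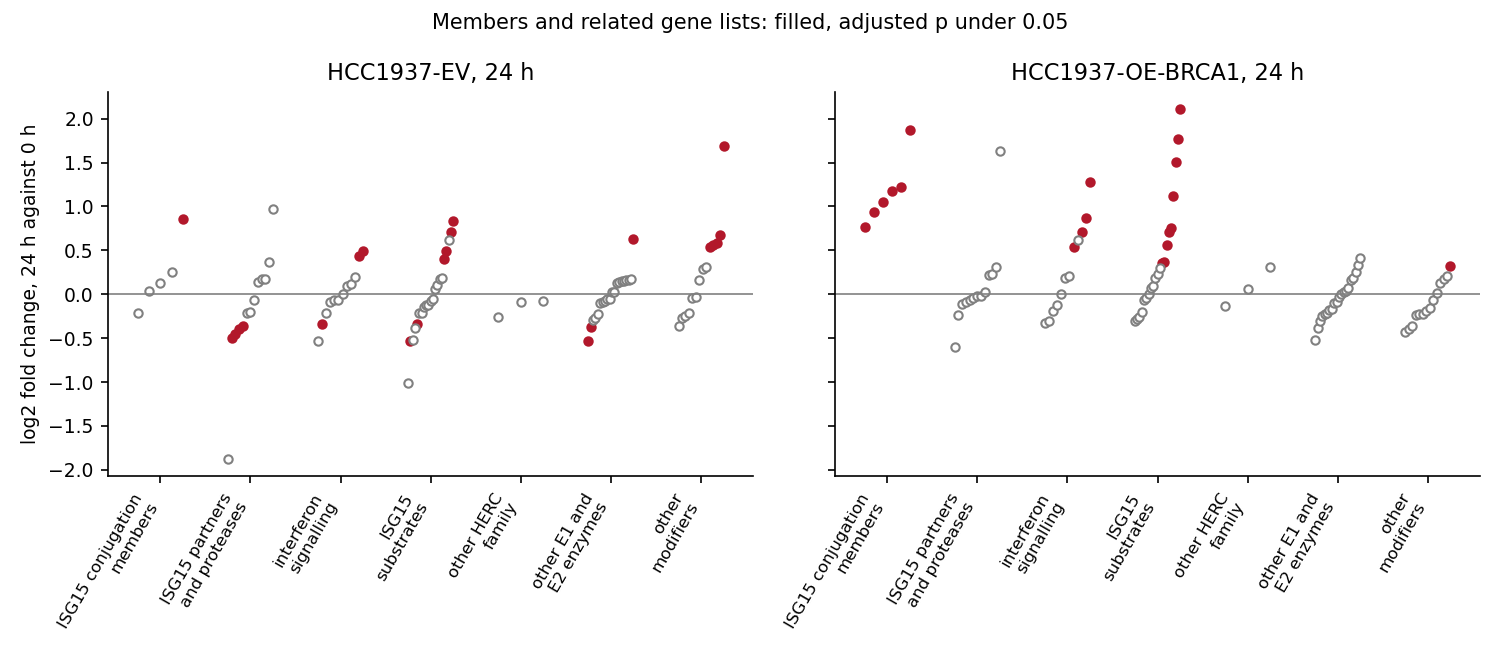
Log2 fold change at 24 h against 0 h (vertical) for the members and for each related gene list (horizontal) in HCC1937-EV and HCC1937-OE-BRCA1, with 1 point per tested gene, sorted within each list, red where the adjusted p was under 0.05 and without UBE2L6 in HCC1937-EV. In HCC1937-OE-BRCA1 all 6 members are red, at 0.77 to 1.87. Of 20 other activating and conjugating enzymes 0 are, near the 4.71% of all tested genes called higher there.

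The genes nearest to each member in pattern were those with the smallest root mean square difference over the 6 condition means of log2 CPM, each centred on its own mean, among 14066 genes with a symbol and a mean of at least 1 CPM. For ISG15 they were DHX58, AZGP1 and SLC37A2, at 0.19 to 0.26. For UBA7 they were DDX60, NOD2 and APOBEC3F, at 0.14 to 0.16. For UBE2L6 they were IFI44L, PKP1 and MX1, at 0.15 to 0.26. For HERC5 they included TLR3 and ACP3, and the 3 lay at 0.20 to 0.28. For HERC6 they were FOXJ1, RNF144A and NGFR, at 0.15 to 0.17, and for USP18 SAMHD1, OAS3 and FBXO6, at 0.13 to 0.15. The likeness is set mostly by the step between the lines, and all points share the same libraries. With a prior count of 0.5 in place of 2, 9 of the 18 genes were named again. These were all 3 for HERC5 and for USP18 and 1 each for ISG15, UBA7 and UBE2L6. For HERC6 0 of 3 were named again. When likeness was the correlation over the 9 HCC1937-OE-BRCA1 libraries, 0 of 18 were.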

How the data were processed

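RNA-seq counts of 18 libraries were analysed. Per the sample labels and the study's methods, RNA came from HCC1937-EV and HCC1937-OE-BRCA1 cells. The files deposited by the authors hold counts of reads per gene, not normalized. The submitters' processing notes name HISAT2, featureCounts and DESeq2 with the builds GRCh38 and hg38; versions, annotation and strandedness are not given in the sources used here, so reads of a gene and an antisense partner may not be separated. The 18 single-library tables were identical to the joint one. Of 35044 Ensembl identifiers, 26360 (75.22%) had a symbol in the gene name table, and 33888 (96.7%) were found in GENCODE 29, which gave positions, exonic lengths and GC content.

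One edgeR 4.0.16 quasi-likelihood fit (R 4.3.3) covered all 18 libraries, with TMM factors, filterByExpr, a mean for each condition and Benjamini-Hochberg adjustment over 18335 genes. The threshold was an adjusted p of 0.05 with any size of change, and the biological coefficient of variation was 12.9%. Alternatives used DESeq2 1.42.0, other scalings and filters, a fold minimum, only the libraries compared, a replicate block, a GC and length trend (mgcv 1.9.3) and each library left out. The fit was tested on simulated data. Replicate pairs differed by more than sampling noise (chi-square per degree of freedom 3.25 to 42.3), so each library counted once.

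All 6 members were named in every comparison. From each related list, counts and up to 4 called genes with the largest changes were named, with the members' 3 nearest genes in pattern. JAK1, UBE2D2, UBE2N and IRF2 at 12 h were named after their values were seen. Some genes that the rule names are not reported here. The members and lists were chosen with earlier results of these data known. Of the listed genes, USP41P, UBD, PGR and CD3E were not in the table, and ITGAL, IRF7, HERC3, CD68, COL1A2 and DCN did not pass the filter.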

Additional observations from a re-analysis of the deposited data

Results flagged for a closer look

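The 6 results below drew attention because the change against 0 h with olaparib differed between HCC1937-OE-BRCA1 and HCC1937-EV. The test was of the difference in edgeR's quasi-likelihood fit, with Benjamini-Hochberg adjustment over all tested genes. At 12 h the treatment effect was larger in HCC1937-OE-BRCA1 for HERC5 by 1.32 on the log2 scale and for USP18 by 0.94. At 24 h it was larger for HERC5 by 2.08, for USP18 by 1.02, for UBA7 by 0.92 and for HERC6 by 0.80. For UBA7 the HCC1937-EV side rests on 15 to 30 counts per library. The lines also differed in EPCAM and KRT5, and the part of any such difference in these results was not tested.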

How the results depend on the processing

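In HCC1937-OE-BRCA1, all 6 members were called against 0 h at 12 h and 24 h under the alternatives tried, except that UBE2L6 was not tested where at least 10 counts were required in every library and that a required log2 fold change above 1 left 3 of the 6 at 12 h and 4 at 24 h. That requirement also left 0 members in HCC1937-EV at 24 h, 0 between 12 h and 24 h in HCC1937-OE-BRCA1, and 1 and 2 for the difference of treatment effects at 12 h and 24 h. Without a filter on low counts 1 member, ISG15, was called in HCC1937-EV at 12 h. Between 12 h and 24 h in HCC1937-OE-BRCA1, 3 members were called with only the libraries compared, and 2 with a GC and length offset, with or without a replicate block. Across all alternatives the log2 fold change of HERC5 there was at least 0.388, against 0.493 in the main fit. The difference of treatment effects for HERC6 at 24 h was at least 0.632, against 0.803. Leaving out single libraries gave 0 to 1 members for HCC1937-EV at 24 h and 0 to 1 between 12 h and 24 h in HCC1937-OE-BRCA1.

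Values near 0 changed sign, and the cause was not tested. With the GC and length offset, UBA7 in HCC1937-EV at 12 h was -0.053 (-0.054 with the replicate block as well) and USP18 there at 24 h -0.063 (-0.064). Between 12 h and 24 h in HCC1937-OE-BRCA1, UBE2L6 was 0.11 with either and USP18 0.00503 (0.00498). With single libraries left out, HERC5 in HCC1937-EV at 12 h ran from -0.066 to 0.12, UBA7 from -0.051 to 0.16 at 12 h, from -0.033 to 0.41 at 24 h and from -0.096 to 0.35 between them, and USP18 at 24 h from -0.059 to 0.12. In HCC1937-OE-BRCA1 between 12 h and 24 h, UBE2L6 ran from -0.047 to 0.065 and USP18 from -0.082 to 0.053.

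Libraries share replicate numbers across conditions, but in 0 of 15 pairs of conditions did every same-numbered pair deviate together, with correlations from -0.227 to 0.295. With 3 libraries per condition this check cannot exclude pairing in some conditions, and the main fit used no replicate block. The replicate block kept each count of called members and moved the count over all genes in HCC1937-EV at 12 h from 8 to 1. Counts over all genes ranged, across alternatives, from 0 to 818 there, from 346 to 5173 at 24 h (main 2520) and from 6 to 180 between them (main 33). In HCC1937-OE-BRCA1 they ranged from 125 to 1141 (main 423), from 302 to 3329 (main 1515) and from 45 to 3208 (main 303). For the difference of treatment effects they ranged from 37 to 772 at 12 h (main 95) and from 1147 to 5502 at 24 h (main 3554). Between the lines they ranged from 8561 to 15089, against 13330 to 13555. No scaling moved the median of all genes by more than 0.076. In HCC1937-EV, 15 to 30 counts per library for UBA7 and 0 to 2 for UBE2L6 limit what can be read of a change.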
